A study of Mus musculus with 8 samples.

Results

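The genes described here are 30 markers of Kupffer cells, other macrophages and myeloid leukocytes, read in sorted mouse hepatic stellate cells. They were chosen by symbol from a fixed list, and a gene counted as measured where the array annotation gives it a probe set with no other gene symbol. A probe set of this kind was found for 29 of the 30 genes, out of 19938 genes measured in all, and each of the 29 had a single such probe set. Slc11a1, a metal transporter of the phagosome, was not analysed here. The reverted group (4 arrays) held stellate cells of male Balb/c mice that had received carbon tetrachloride (CCl4), a hepatotoxin, in 4 injections of 0.5 µl per g body weight at 2 per week, followed by 45 days without treatment. The quiescent group (4 arrays) held stellate cells of normal male Balb/c mice. The labels put the quiescent mice at 18 weeks of age and the reverted mice at 16 weeks in one place and at 18 weeks in another. A density gradient and a sort on the autofluorescence of stored retinoids gave the cells of both groups, and lysis followed at once. No label says whether an array holds 1 mouse or a pool, so each p-value covers the scatter among these 8 arrays alone, part of which may be technical.

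Kupffer cells are the resident macrophages of the liver. They lie in the sinusoid beside the endothelium and the stellate cells, clear particles and ageing red cells through scavenger, complement and Fc receptors, and depend on the receptor for colony stimulating factor 1 and on the ETS transcription factor PU.1, which the gene Spi1 encodes. Injury brings in monocytes, which can take on features of resident macrophages. In a sorted stellate cell preparation such genes report on other cells that came through the sort, on low expression in the stellate cells, or on probe set background. In bulk RNA, fewer cells of a type and less RNA per cell cannot be told apart.

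The 250 bases before the annotated transcription start are shown for 5 members, since PU.1 is the shared regulator of this gene class. Lyz2 and Laptm5, the 2 members with a higher mean in reverted arrays at an unadjusted p under 0.05, are set beside the Kupffer cell genes Clec4f, Vsig4 and Cd5l. Sequences are from RefSeq, build GRCm38.p6, 5′ to 3′ on the gene's strand. Capitals mark the PU.1 motif GAGGAA on either strand (TTCCTC where it lies on the other strand). Only this exact string is marked, and a window with 0 matches can still hold the shorter GGAA, as that of Lyz2 does.
Lyz2, chr10:117282273-117282522, minus strand: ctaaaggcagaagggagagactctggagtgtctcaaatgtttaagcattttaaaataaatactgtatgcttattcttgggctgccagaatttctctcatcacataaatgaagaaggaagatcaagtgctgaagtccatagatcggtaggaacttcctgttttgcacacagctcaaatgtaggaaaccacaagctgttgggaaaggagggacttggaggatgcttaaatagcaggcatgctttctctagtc
Laptm5, chr4:130913066-130913315, plus strand: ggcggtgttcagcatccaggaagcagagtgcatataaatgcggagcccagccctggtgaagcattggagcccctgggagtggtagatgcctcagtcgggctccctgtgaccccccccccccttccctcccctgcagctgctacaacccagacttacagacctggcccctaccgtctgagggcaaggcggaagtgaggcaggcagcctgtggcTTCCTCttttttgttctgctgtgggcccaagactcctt
Clec4f, chr6:83656117-83656366, minus strand: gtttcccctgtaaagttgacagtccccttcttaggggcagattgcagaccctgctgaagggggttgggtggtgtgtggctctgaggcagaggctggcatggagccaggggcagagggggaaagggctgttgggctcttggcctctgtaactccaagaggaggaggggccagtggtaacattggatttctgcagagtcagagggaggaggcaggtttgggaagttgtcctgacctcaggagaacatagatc
Vsig4, chrX:96293439-96293688, minus strand: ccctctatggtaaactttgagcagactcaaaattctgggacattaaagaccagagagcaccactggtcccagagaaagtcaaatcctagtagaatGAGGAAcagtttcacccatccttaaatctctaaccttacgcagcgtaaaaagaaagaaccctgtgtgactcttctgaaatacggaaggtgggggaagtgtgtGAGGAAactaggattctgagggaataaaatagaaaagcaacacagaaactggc
Cd5l, chr3:87357631-87357880, plus strand: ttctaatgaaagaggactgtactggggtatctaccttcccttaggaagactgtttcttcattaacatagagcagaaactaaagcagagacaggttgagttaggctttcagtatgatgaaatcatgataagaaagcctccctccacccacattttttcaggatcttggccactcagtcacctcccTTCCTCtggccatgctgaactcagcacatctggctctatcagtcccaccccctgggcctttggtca
The Vsig4 window holds 2 matches, the Laptm5 and Cd5l windows hold 1 each, and the Lyz2 and Clec4f windows hold 0. Both starts of the Kupffer cell gene Folr2, not shown, also hold 0, so the Kupffer cell genes differ among themselves. Of the 29 members, 22 have an entry in the promoter table, with 27 starts. A match was present before 11 of these 27 starts (40.7%), against 7639 of 32851 starts (23.3%) in the whole table. A match is a description of the letters and not a binding site.

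None of the 29 measured members passed the test between reverted and quiescent arrays (limma, Benjamini-Hochberg adjustment over all 19938 genes, adjusted p under 0.05). Over all genes 142 passed, a share of 0.712%. Genes called higher in reverted arrays were 0.527% of all genes and genes called lower 0.186%, a split of 73.9% to the higher side, against 58.5% after quantile normalization. The smallest adjusted p among the members was 0.118, for Cd83. At an unadjusted p under 0.05 there were 6 of 29 members, 2 with a higher mean (Lyz2, Laptm5) and 4 with a lower mean (Cd83, Siglec1, Folr2, Coro1a) in reverted arrays, where 16.0% of all genes reached that limit. The median log2 change of the members was -0.05 and that of all genes -0.01. A higher mean in reverted arrays was found in 8 members and a lower mean in 21, against 46.4% and 53.6% of all genes.

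The level of a probe set places most of these genes at the dim end of the array. Of the 29 members, 26 lay in the lower 50% of genes by mean level and 12 in the lowest 25%, with a median level percentile of 28.2. Probe sets differ in their response, so a percentile shows only where on the scale a value was read, and no detection call was used here. RMA values have no true 0, and on this compressed part of the scale a change may be understated. Genes of the lower 50% also had a shift of their own: the reverted mean was the higher one in 28.7% of them and the lower one in 71.3%, with a median log2 change of -0.04. Among the 26 dim members 6 means were above and 20 below those of quiescent arrays, with a median log2 change of -0.05, which lies near that background. At an unadjusted p under 0.05 stood 5 of the 26 dim members (2 higher, 3 lower) and 11.9% of the genes of the lower 50%. The 15 stellate markers had a median level percentile of 99.6, with Lrat at 99.9 and Des at 98.0, and Gfap was the lowest at 62.3.

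The genes that define Kupffer cells were dim in both groups and 0 of 5 passed the test. Clec4f, the Kupffer cell C-type lectin that binds galactose, had log2 levels of 7.05, 7.03, 6.89 and 7.01 in reverted arrays, against 7.15, 7.16, 7.11 and 6.91 in quiescent arrays. Quiescent array 4 lay below 3 of the reverted arrays, so the groups overlapped, and the log2 change was -0.09 (95% interval -0.23 to 0.06). Vsig4, the complement receptor of the immunoglobulin family, lay at 5.83, 5.88, 5.87 and 5.87 in reverted arrays and at 5.79, 5.96, 5.77 and 5.82 in quiescent arrays. All 4 reverted values fell inside the quiescent range, with a log2 change of 0.03 (95% interval -0.08 to 0.13). Cd5l, a secreted scavenger protein of macrophages, had a log2 change of -0.02 (95% interval -0.10 to 0.07), and Timd4, a phosphatidylserine receptor for dying cells, one of -0.08 (95% interval -0.23 to 0.07).

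Folr2, the macrophage folate receptor, was the exception to the overlap in this group. Its log2 levels were 6.45, 6.38, 6.24 and 6.46 in reverted arrays, against 6.51, 6.52, 6.50 and 6.52 in quiescent arrays. Each reverted array lay below each quiescent array, and the quiescent values stood within a very narrow band (SD 0.01, n = 4). The log2 change was -0.13 (SE 0.05, limma adjusted p = 0.27). Among all genes 4.09% had every reverted array below every quiescent array, and 4 of the 29 members did, namely Folr2, Siglec1, Coro1a and Cd83. Separation in either direction was found in 8.73% of all genes and in 5 members. Within the lower 50% by level, 1.48% of genes had every reverted array above, 4.93% every reverted array below and 6.41% either, against 1, 3 and 4 of the 26 dim members.

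The scavenger receptors gave 0 calls of 4. Siglec1, the sialoadhesin that binds sialic acid on other cells, had log2 levels of 7.27, 7.17, 7.14 and 7.26 in reverted arrays and of 7.33, 7.31, 7.42 and 7.30 in quiescent arrays. The groups did not overlap, with a log2 change of -0.13 (SE 0.05, limma adjusted p = 0.234). Marco, a class A scavenger receptor for bacteria and particles, lay at 6.72, 6.60, 6.59 and 6.58 in reverted arrays, against 6.86, 6.91, 6.65 and 6.66 in quiescent arrays. Reverted array 1 stood above its group and reached into the quiescent range, and the log2 change was -0.15 (95% interval -0.30 to 0.00). Cd163, the haemoglobin-haptoglobin receptor, had a log2 change of -0.05 (95% interval -0.13 to 0.04).

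Msr1, another class A scavenger receptor, had the widest spread of this group. Its log2 levels were 5.86, 5.81, 5.97 and 6.20 in reverted arrays, against 5.74, 6.25, 6.02 and 5.80 in quiescent arrays. Reverted array 4 and quiescent array 2 were the high ones, and the log2 change of 0.01 had a 95% interval from -0.26 to 0.28. The mean of 17 endothelial markers was also highest in these arrays, at 8.85, 8.84, 8.97 and 9.27 in reverted arrays and at 8.75, 9.08, 8.91 and 8.77 in quiescent arrays. In deviations from the group means, Msr1 correlated at 0.96 with the endothelial, 0.73 with the hepatocyte and -0.47 with the stellate mean. The part of endothelial RNA in the Msr1 values was not tested beyond a covariate for the endothelial mean. With it the log2 change of Msr1 was -0.11 (adjusted p = 0.405).

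Among the 6 genes of the macrophage lineage, 4 had log2 changes between -0.09 and -0.01 and Lyz2 and Cd68 had larger ones with a positive sign. Lyz2, the lysozyme of macrophages and granulocytes, had log2 levels of 7.24, 6.81, 7.00 and 7.63 in reverted arrays, against 6.67, 6.62, 6.45 and 6.60 in quiescent arrays. Each reverted array lay above each quiescent array, a separation found in that direction in 4.64% of all genes and in 1 of the 29 members. The mean was 7.17 ± 0.35 in reverted arrays and 6.58 ± 0.09 in quiescent arrays (SD, n = 4 each), a 1.50-fold difference. The log2 change of 0.59 (SE 0.15, 95% interval 0.25 to 0.93) did not pass, with a limma adjusted p = 0.129. Without reverted array 4, the highest, it was 0.43 (adjusted p = 0.172).

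Lyz2 has a near-identical neighbour, Lyz1, and how the probe sets divide their signal was not tested. The Lyz1 probe set read 6.69, 6.79, 6.79 and 6.75 in reverted arrays and 6.64, 6.71, 6.64 and 6.73 in quiescent arrays, with a log2 change of 0.08 (limma adjusted p = 0.377). It did not show the high values of reverted arrays 1 and 4. Those arrays were the highest of all 8 for the mean of 15 hepatocyte markers, at 9.09, 8.62, 8.77 and 8.90 in reverted arrays and 8.14, 8.85, 8.44 and 7.90 in quiescent arrays. With that mean as a covariate the log2 change of Lyz2 was 0.50 (adjusted p = 0.227), and with the endothelial mean it was 0.50 (adjusted p = 0.23). In deviations from the group means, Lyz2 correlated at 0.22 with the hepatocyte, 0.60 with the endothelial and -0.77 with the stellate mean.

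Cd68, the endosomal and lysosomal macrophage glycoprotein that other cells also make in their lysosomes, was the member highest on the scale, at level percentile 77.7. It read 10.57, 10.89, 10.13 and 10.58 in reverted arrays, against 10.23, 10.11, 9.76 and 10.54 in quiescent arrays. Reverted array 3 lay within the quiescent range, and quiescent arrays 1 and 4 lay within the reverted range. The log2 change was 0.38 (95% interval -0.03 to 0.79, limma adjusted p = 0.341), and it was 0.61 with the hepatocyte mean as a covariate (adjusted p = 0.194).

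The remaining lineage genes stayed within the spread of their arrays. Csf1r, the receptor for colony stimulating factor 1, had log2 levels of 7.03, 6.98, 6.93 and 7.05 in reverted arrays, against 7.42, 6.97, 6.97 and 6.99 in quiescent arrays. Quiescent array 1 alone set its log2 change of -0.09 (95% interval -0.31 to 0.13), which was 0.02 without that array. Spi1, encoding PU.1, lay at 6.95, 7.00, 6.92 and 6.71 in reverted arrays and at 6.83, 6.90, 6.98 and 6.90 in quiescent arrays, with a log2 change of -0.01 (95% interval -0.16 to 0.14). Reverted array 4, the highest for Lyz2, was the lowest for Spi1. Adgre1, which encodes the F4/80 antigen, was the dimmest member, at level percentile 10.8, with a log2 change of -0.05 (95% interval -0.14 to 0.05). Aif1, the calcium-binding protein of microglia and macrophages known as Iba1, had a log2 change of -0.06 (95% interval -0.14 to 0.03).

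**Figure D1:**
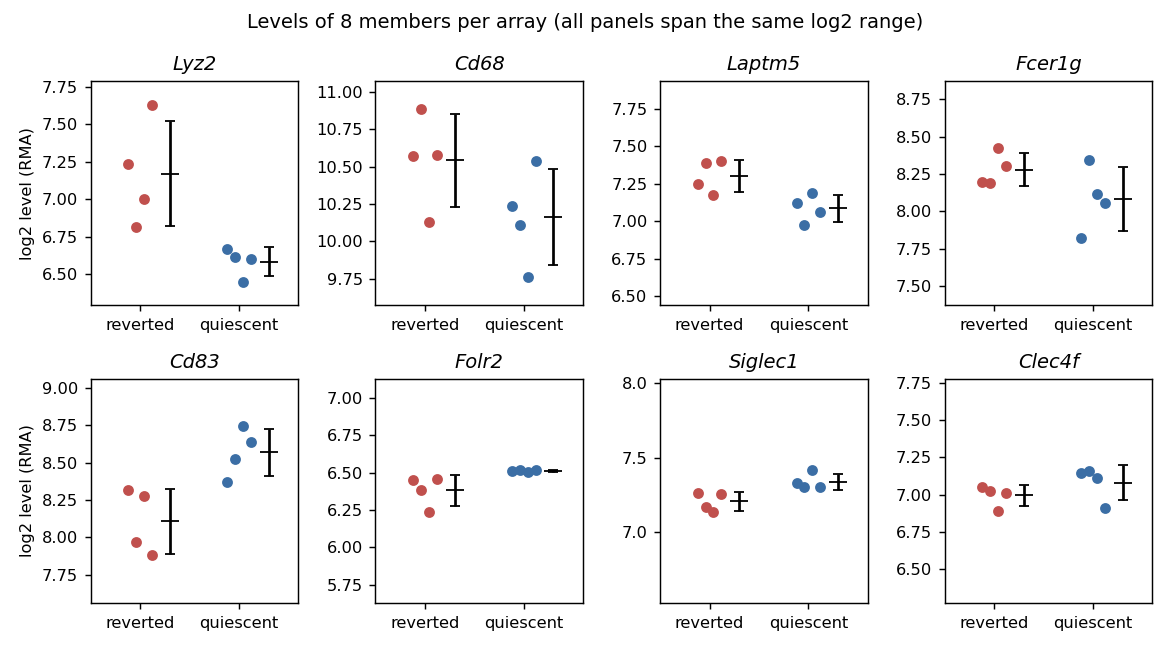
Log2 levels (RMA) of 8 members in the 4 reverted arrays (red) and the 4 quiescent arrays (blue), 1 point per array, with the mean and SD of each group in black. Lyz2 is higher in every reverted array, Cd83, Folr2 and Siglec1 are lower in every reverted array, and the arrays of Cd68, Laptm5, Fcer1g and Clec4f overlap.

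Fc receptors and their signalling adaptors gave 0 calls of 4. Fcer1g, the common gamma chain that carries the signal of activating Fc receptors, read 8.20, 8.19, 8.42 and 8.30 in reverted arrays, against 7.82, 8.34, 8.12 and 8.05 in quiescent arrays. Only quiescent array 2 lay within the reverted range, and the log2 change was 0.20 (95% interval -0.03 to 0.42, limma adjusted p = 0.373). Fcgr3, the low-affinity activating IgG receptor that needs this chain, lay at 6.54, 6.49, 6.56 and 6.56 in reverted arrays and at 6.60, 7.07, 6.45 and 6.32 in quiescent arrays. The reverted values were close together (SD 0.04, n = 4), while quiescent array 2 was far above its group, and the log2 change of -0.08 was 0.08 without that array. Fcgr1, the high-affinity IgG receptor, and Tyrobp, the DAP12 adaptor of myeloid receptors, both had log2 changes of -0.11, with 95% intervals from -0.23 to 0.02 and from -0.26 to 0.05. With all arrays the signs of Fcgr3 and Fcgr1 were opposite to that of Fcer1g, but that of Fcgr3 turned without quiescent array 2. The 95% intervals of these genes all included 0.

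The 2 measured members among the subunits of the phagocyte NADPH oxidase, which makes superoxide in the phagosome, did not pass. Cybb, its membrane catalytic chain, had a log2 change of -0.01 (95% interval -0.12 to 0.09), and Ncf1, its cytosolic organiser, one of -0.06 (95% interval -0.28 to 0.15). Of the 2 genes Cybb was read near the bottom of the scale, at level percentile 11.7, and Ncf1 at 45.7. The subunit genes Cyba and Ncf4, which are not members, lay at level percentiles 95.9 and 23.2. Their log2 changes were 0.01 and -0.05, and neither passed.

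The 8 leukocyte genes, some shared by most blood cells and some of narrower myeloid or activated classes, gave 0 calls, with differences of either sign. Cd83, a surface protein of mature dendritic cells and activated lymphocytes, had log2 levels of 8.31, 7.97, 8.27 and 7.88 in reverted arrays, against 8.37, 8.52, 8.74 and 8.64 in quiescent arrays. Each reverted array lay below each quiescent array, although reverted array 1 and quiescent array 1 nearly met. The mean was 8.11 ± 0.22 in reverted arrays and 8.57 ± 0.16 in quiescent arrays (SD, n = 4 each), 1.37-fold higher in quiescent arrays. The log2 change of -0.46 (SE 0.11, 95% interval -0.71 to -0.21) had a limma adjusted p = 0.118, and 0.0584 after quantile normalization.

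Laptm5, a lysosomal membrane protein of blood cells, lay on the other side. It read 7.25, 7.39, 7.17 and 7.40 in reverted arrays, against 7.12, 6.97, 7.19 and 7.06 in quiescent arrays. Reverted array 3 was just under quiescent array 3, and the log2 change was 0.22 (SE 0.07, 95% interval 0.07 to 0.36, limma adjusted p = 0.172). Coro1a, the leukocyte actin regulator coronin 1A, read 7.01, 7.00, 7.01 and 6.96 in reverted arrays, against 7.18, 7.19, 7.03 and 7.04 in quiescent arrays. Its groups did not overlap, by a narrow margin, and its log2 change was -0.11 (SE 0.05, limma adjusted p = 0.294). Ptprc, encoding the pan-leukocyte phosphatase CD45, had a log2 change of -0.04 (95% interval -0.14 to 0.05) at level percentile 20.8. Lcp1, the leukocyte plastin, had one of 0.07, and Ly86, the MD-1 partner of the RP105 receptor, one of 0.03. The integrin chains Itgam (CD11b) and Itgax (CD11c) had log2 changes of -0.04 and -0.07, and the 95% intervals of these 4 genes all included 0.

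**Figure D2:**
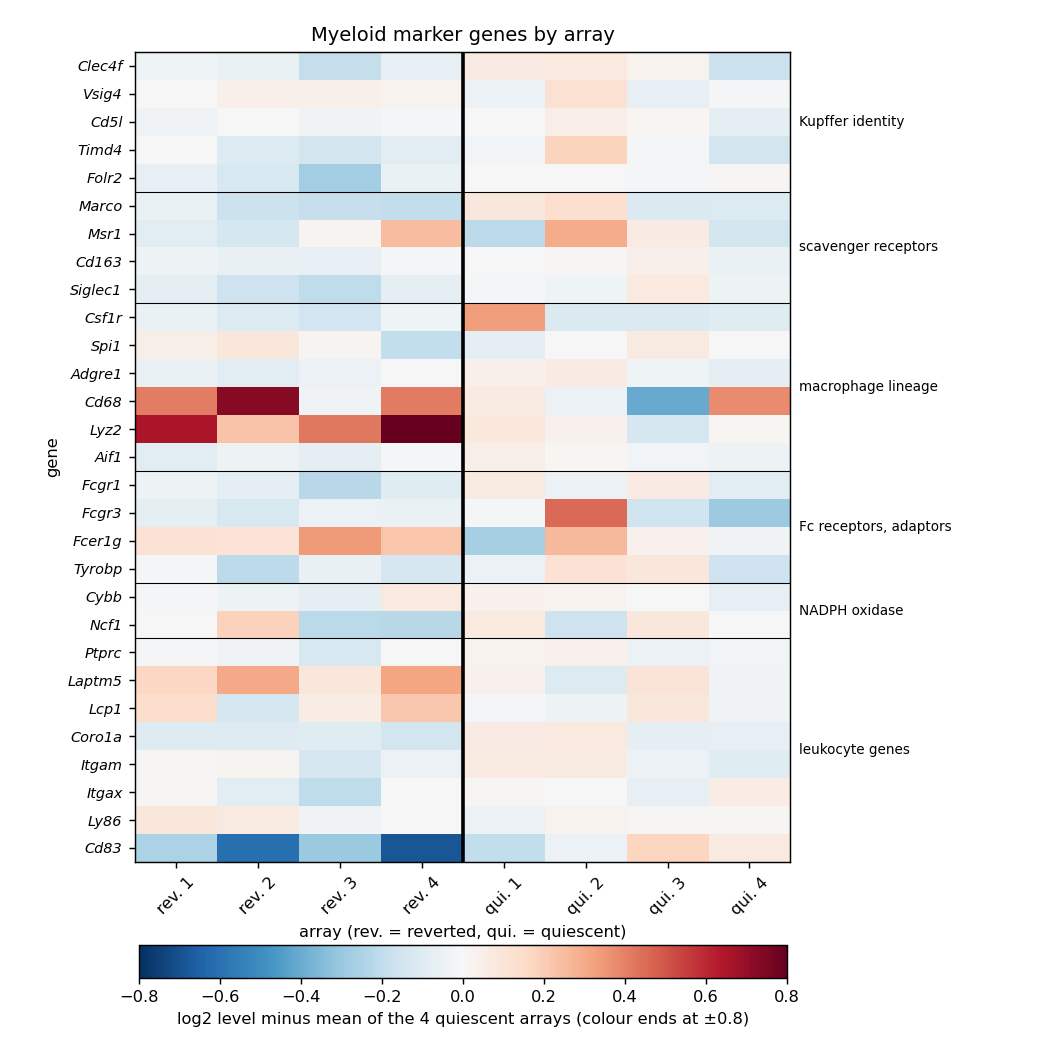
Log2 level of each of the 29 members in each array minus the mean of the 4 quiescent arrays, with reverted arrays on the left and genes grouped by role. Lyz2, Cd68 and Laptm5 stand out in red and Cd83 in blue in reverted arrays, and most other rows stay pale, with quiescent array 2 high for Msr1 and Fcgr3 and quiescent array 1 high for Csf1r.

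**Figure D3:**
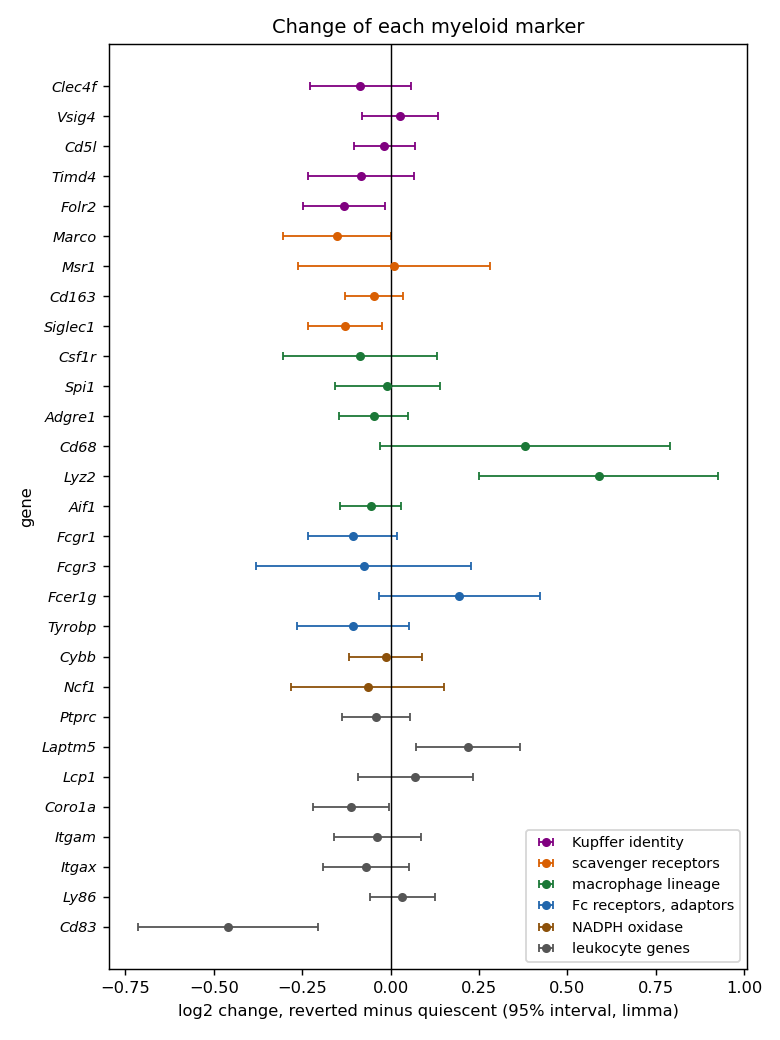
Log2 change of each member, reverted minus quiescent, with the 95% interval of the limma fit (4 arrays per group). The intervals of Lyz2, Laptm5, Folr2, Siglec1, Coro1a and Cd83 do not include 0, and 0 of the 29 genes passed after adjustment over all genes.

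Members varied together across arrays only weakly. As a description with no test, Pearson correlations of the deviations from the group means were taken for the 406 pairs of members over the 8 arrays. Their median was 0.20, against 0.11 for all pairs of genes in the lower 50% by level and 0.00 for all pairs of genes, and 24.9% of the member pairs exceeded 0.5, against 19.9% and 15.2%. All pairs were read on the same 8 arrays, which were normalized together. For the 15 hepatocyte markers the median was 0.81, and for the 17 endothelial markers it was 0.47. The 5 Kupffer identity genes had a median of 0.45 over 10 pairs, and the 8 leukocyte genes one of 0.12 over 28 pairs. Clec4f, Vsig4, Cd5l, Timd4 and Folr2 correlated at 0.86, 0.23, 0.67, 0.90 and 0.32 with the mean of the genes in the lower 50%. With the hepatocyte mean they correlated at 0.64, 0.51, 0.73, 0.94 and 0.21. What these 5 genes share beyond such shifts was not tested.

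Arrays within a group differed in how many members they held high or low. In the reverted group, array 4 was the highest for 11 members and array 3 the lowest for 15. In the quiescent group, array 2 was the highest for 14 of the 29 members and array 4 the lowest for 12. The mean of the 29 members was 6.84, 6.80, 6.76 and 6.84 in reverted arrays, against 6.83, 6.88, 6.81 and 6.78 in quiescent arrays. The mean over all genes of the lower 50% was 6.58, 6.54, 6.53 and 6.55 in reverted arrays, against 6.59, 6.61, 6.58 and 6.54 in quiescent arrays. Taking deviations from the group mean, reverted array 3 stood at -0.05 for the members and at -0.01 for the genes of the lower 50%, and reverted array 4 at 0.03 and -0.0032. Quiescent array 2 stood at 0.05 for the members and at 0.03 for the genes of the lower 50%, and quiescent array 4 at -0.05 and -0.04. The part of array-wide shifts in the members was not tested.

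The hepatocyte mean varied widely between arrays, and with it as a covariate 0 of the 29 members were called, with a smallest adjusted p of 0.105 for Timd4. The log2 change of Timd4 was then -0.24, against -0.08 without the covariate. That of Clec4f was -0.18, that of Tyrobp -0.26 and that of Fcgr3 -0.37, each over 1.5 times as far from 0 as without it. That of Fcer1g was 0.04, nearer to 0. The part of hepatocyte RNA in these values was not tested beyond this covariate.

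**Figure D4:**
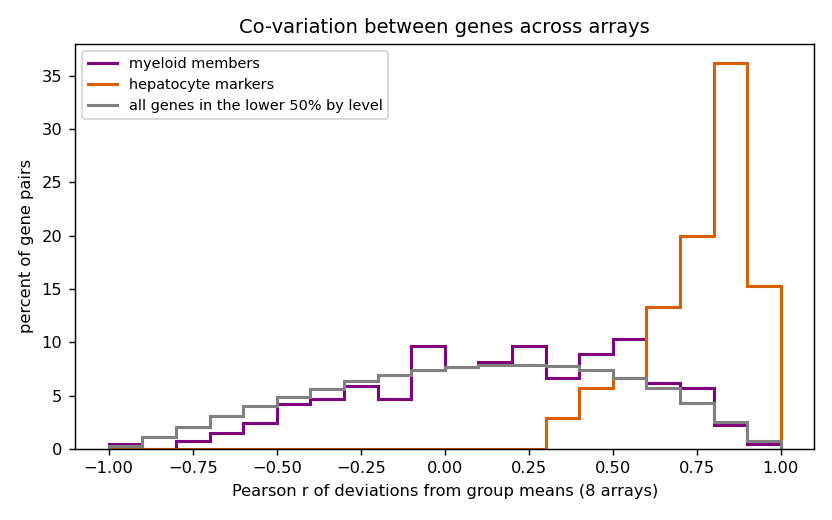
Distribution of Pearson correlations between pairs of genes, of deviations from group means over 8 arrays, in percent of pairs. The myeloid members (median 0.20) follow the genes of the lower 50% by level (median 0.11) more closely than the hepatocyte markers (median 0.81).

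Other genes of the same cells were read from fixed lists. Of 32 further myeloid genes measured, 0 passed the test, with a median log2 change of -0.03. Vav1, a guanine nucleotide exchange factor of blood cells, had the smallest p of that list, at a log2 change of 0.22 (limma adjusted p = 0.0861), and Dock2, another leukocyte exchange factor, came next at -0.14 (adjusted p = 0.209). Of 18 further genes linked to Kupffer cells 1 rose and 0 fell. It was Ctsc, the lysosomal dipeptidyl peptidase cathepsin C, which read 11.40, 11.39, 11.44 and 11.44 in reverted arrays, against 10.78, 10.88, 10.95 and 11.10 in quiescent arrays. All reverted arrays were higher, at a 1.40-fold difference with a log2 change of 0.49 (SE 0.06, limma adjusted p = 0.0112). Its adjusted p was 0.0512 without reverted array 4, at a log2 change of 0.48, and 0.064 with the hepatocyte mean as a covariate, at a larger log2 change of 0.55. Several genes of this list, Ctsc among them, are also made outside macrophages, and the list had a median level percentile of 60.8. Of its leading genes, Clec1b and Cd207 lay at level percentiles 12.0 and 15.6 and C6 at 90.2.

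Of 14 ligands and adhesion genes that act on macrophages 1 rose and 0 fell. Gas6, a bridging ligand of the TAM receptors that macrophages use to clear dying cells, read 9.24, 8.60, 8.85 and 9.10 in reverted arrays, against 7.92, 8.14, 8.16 and 8.15 in quiescent arrays. All reverted arrays were higher, at a 1.81-fold difference with a log2 change of 0.86 (SE 0.13, limma adjusted p = 0.0194). The adjusted p was 0.0663 without quiescent array 1, 0.0634 without reverted array 3 and 0.0713 without reverted array 4, with log2 changes of 0.80, 0.89 and 0.81. It was 0.107 with the hepatocyte mean and 0.0593 with the endothelial mean as a covariate, with log2 changes of 0.69 and 0.81. The macrophage growth factor genes Csf1 and Il34 had log2 changes of -0.08 (adjusted p = 0.585) and 0.22 (adjusted p = 0.393). Dll4, a Notch ligand, had one of -0.75 (SE 0.21, adjusted p = 0.153), with overlapping arrays.

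Lists of other cell types gave the following levels and counts. Of 11 neutrophil, 9 dendritic and 15 lymphoid genes 0 passed, with median log2 changes of -0.05, -0.05 and -0.02. Of 15 hepatocyte markers 1 rose (Hp, log2 change 0.80, adjusted p = 0.0373) and 15 had a higher mean, and their mean differed by 0.51 with overlapping arrays. Of 17 endothelial markers 0 passed, and Clec4g had the smallest p (log2 change 0.50, adjusted p = 0.063). Of 15 stellate markers 1 fell (Gfap, log2 change -0.49, adjusted p = 0.0182), and 14 had a lower mean. The stellate list means lay between 13.27 and 13.34 in reverted arrays and between 13.36 and 13.42 in quiescent arrays, with no overlap and a difference of -0.08. Gfap is part of that mean, and the median log2 change of the 15 stellate markers was -0.05. Without Gfap the list means overlap, since that of reverted array 2 then lies above that of quiescent array 2. Of 5 red cell and platelet genes 1 fell (Itga2b, log2 change -0.28, adjusted p = 0.044). Leaving out an array ended the call of Hp for each array but quiescent 2, that of Itga2b for each but reverted 4, and that of Gfap for reverted 4, with highest adjusted p of 0.13, 0.146 and 0.0703. With the hepatocyte mean as a covariate the log2 change of Itga2b was -0.25 (adjusted p = 0.127) and that of Gfap -0.37 (adjusted p = 0.105). That of Hp was 0.50 (adjusted p = 0.108), but Hp is part of that mean, so a smaller change is built in.

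**Figure D5:**
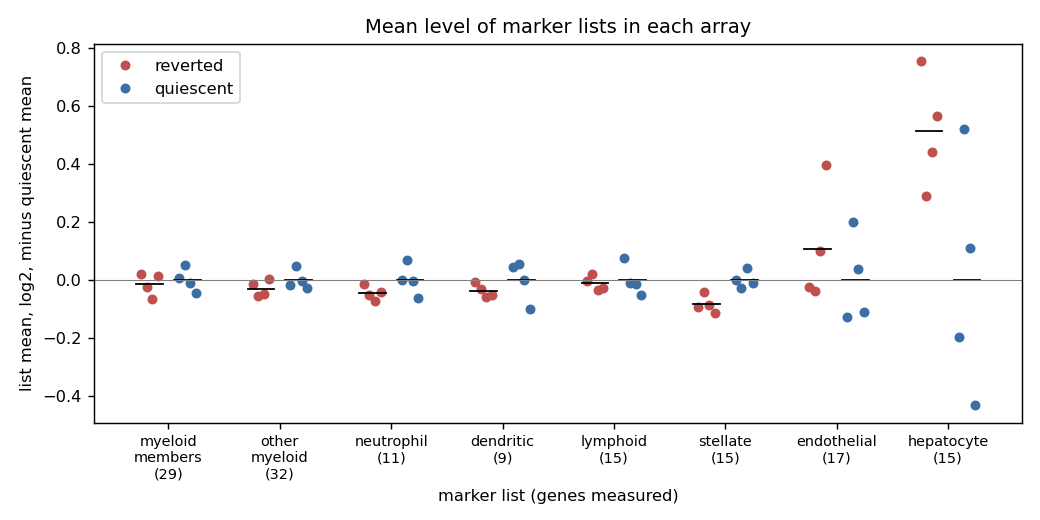
Mean log2 level of each marker list in each array, minus the mean of the 4 quiescent arrays, with reverted arrays in red left of quiescent arrays in blue and the number of genes in brackets. The myeloid, neutrophil, dendritic and lymphoid lists stay near 0, while the hepatocyte list spreads widely and has a reverted mean 0.51 above the quiescent mean.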

How the data were processed

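The authors deposited log2 expression values, which per the submitters' processing notes came from RMA. Version, settings and build of that step are not given in the sources used here. Values cover 35556 probe sets on 8 arrays. Symbols came from the platform annotation, which gives 21789 probe sets a single symbol and 1621 several, and only those with a single symbol were used. A gene with several such probe sets was read from the brightest, by mean level. The groups were fitted with limma 3.58.1, lmFit and then eBayes (R 4.3.3), 2-sided, without covariates, over 19938 genes with Benjamini-Hochberg adjustment, and a gene was called at an adjusted p under 0.05. Intervals are 95% intervals of that fit, whose width the 8 arrays set. Changes are reverted minus quiescent. The fit was tested on simulated data. Tables and plots used Python 3.11.15, pandas 2.3.3 and matplotlib 3.10.9. All 29 members are named, and of other lists the genes called and those with the smallest p, up to 2. Lrat, Des, Csf1, Il34, Clec1b and Cd207 were named as the leading genes of their lists, and Lyz1, Fcna, Cyba and Ncf4 were added after the values were seen. The members and lists were chosen with earlier results of these data known. The alternatives were other scalings, filters, probe set choices, variance models, array weights, a replicate block, covariates and leaving out each array.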

Additional observations from a re-analysis of the deposited data

Results flagged for a closer look

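In 2 of 60 groups of 4 arrays checked, an array stood apart from the other 3 by more than Dixon's limit for its gap over the range, where chance flags about 1 in 20 groups. Marco read 6.72 in reverted array 1, against 6.58 to 6.60 in the other reverted arrays. Csf1r read 7.42 in quiescent array 1, against 6.97 to 6.99 in the other quiescent arrays.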

How the results depend on the processing

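Across the 20 alternatives, 1 of which (the endothelial covariate) was chosen after seeing the data, 0 of the 29 members were called and the smallest adjusted p was 0.0584. Of 542 values of single members under them, 525 kept their direction and 17, of 8 members, did not. The level filters, probe set choices, variance models, replicate block and permutation test leave a member's log2 change as it was. Directions under these were fixed in advance, so part of the 525 carries no weight. After quantile normalization the log2 changes of Cd5l, Spi1 and Cybb were 0.0077, 0.034 and 0.016. With the hepatocyte covariate those of Vsig4, Msr1 and Ncf1 were -0.023, -0.23 and 0.041, and with the endothelial covariate those of Msr1, Spi1 and Ncf1 were -0.11, 0.027 and 0.0065. With an array left out, Msr1 ranged from -0.071 to 0.11, Csf1r from -0.13 to 0.023, Fcgr3 from -0.17 to 0.076, Spi1 from -0.043 to 0.054 and Cybb from -0.044 to 0.0091. The cause was not tested. Without the lowest 25% of genes 17 members were tested, 5 of them with a higher mean, and without the lower 50% there were 3 members, 2 with a higher mean and a median log2 change of 0.20, which follows from the fewer genes tested. Counts over all genes moved more, with higher and lower calls of 218 and 88 with array weights, 21 and 2 with the hepatocyte covariate, 53 and 12 with the endothelial covariate, 91 lower calls after quantile normalization, and ranges of 41 to 175 and 13 to 72 with an array left out, widest without quiescent 4 (175 and 72) and reverted 4 (41 and 13), and leaving out quiescent 1, quiescent 3, reverted 2 or reverted 3 also moved a count by over 1.5 times. With the replicate number as a block there were 48 and 15 calls, and Gas6 had an adjusted p of 0.0855 at an unchanged log2 change of 0.86. Same-numbered arrays share only a number in the labels, and their deviations correlated between -0.15 and 0.08. The exact permutation test has a smallest possible p of 0.0286, and its smallest adjusted p was 0.327. It could therefore call no member, and its 0 calls carry no weight. Dim probe sets limit the members, since 26 of 29 lay in the lower 50% by level.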

Other observations

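Ficolin A, a lectin of the complement pathway known from liver macrophages and encoded by Fcna, was read near the top of the scale in these sorted cells, at level percentile 99.1. It was singled out after its values were seen. Its log2 levels were 13.26, 13.31, 13.26 and 13.13 in reverted arrays, against 13.33, 13.36, 13.33 and 13.38 in quiescent arrays. Each reverted array lay below each quiescent array, with a log2 change of -0.11 (limma adjusted p = 0.278). Among the other genes of the list linked to Kupffer cells, C6, which encodes a complement component, had a log2 change of 0.18 (adjusted p = 0.169), and Kcna2, a potassium channel gene, one of -0.13 (adjusted p = 0.234).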
